A study of Homo sapiens with 3 samples.

Results

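The 10 genes described here encode proteins that bring iron into the cell, store it, release it, export it or sense it (TFRC, FTH1, FTL, NCOA4, SLC40A1 and IREB2), and proteins that make or repair the oxidised membrane lipids of ferroptosis (ACSL4, LPCAT3, GPX4 and AIFM2). They were chosen by gene symbol, and all 10 were found among the 27574 genes of the count table. The table holds RNA sequencing read counts of 3 libraries of H82R cells, 1 group, named here replicates 1, 2 and 3. H82 is a widely used human line of small cell lung cancer, a neuroendocrine tumour. The labels do not explain the R of H82R. According to them, all 3 libraries came from cells treated with etoposide and cisplatin, which damage DNA. The labels name no dose, no duration, and no untreated or parental cells, so the values are levels in these cells and not effects of the drugs. Whether the libraries are separate cultures is not stated, so each p-value applies to these 3 samples alone, and the spread between them may be technical.

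Cells take up iron mainly as transferrin bound to the transferrin receptor, keep the surplus inside ferritin shells, and send iron out through ferroportin. When iron is scarce, iron regulatory proteins bind a hairpin in the mRNA, the iron-responsive element: in the 5′ untranslated region of the ferritin and ferroportin mRNAs this blocks translation, and in the 3′ untranslated region of the transferrin receptor mRNA it slows decay. Ferroptosis is a cell death in which iron drives the oxidation of polyunsaturated phospholipids faster than reducing enzymes, above all the glutathione peroxidase GPX4, can clear it.

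The hairpin letters are shown because they divide the iron genes by the end of the mRNA that carries the signal. They were found in GENCODE 29 transcripts (GRCh38), on the sense strand, as a C, 5 bases of any kind, CAGTG and 1 more base, with all 5 bases before the loop able to pair with the 5 bases after it, G with T included. Capitals mark the unpaired C and the 6-base loop of each 30-base window, written as DNA.
FTH1, 5′ region: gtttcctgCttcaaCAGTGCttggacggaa
FTL, 5′ region: gtctcttgCttcaaCAGTGTttggacggaa
SLC40A1, 5′ region: tccaacttCagctaCAGTGTtagctaagtt
TFRC, 3′ region, match 1: ataattatCggaagCAGTGCcttccataat
TFRC, 3′ region, match 2: cacattatCgggagCAGTGTcttccataat
TFRC, 3′ region, match 3: gtctgtatCggagaCAGTGAtctccatatg
TFRC, 3′ region, match 4: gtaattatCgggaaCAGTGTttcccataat
The motif was found in the 5′ region of 0.189% of 19061 coding genes and in the 3′ region of 0.689% of 19164 coding genes. The ferritin windows of FTH1 and FTL differed from each other at 3 of 30 letters, the TFRC windows among themselves at 5 to 12, and the SLC40A1 window from all others at 15 to 18. A match is a description of letters, and the untranslated regions of the remaining 6 genes held none.

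A second sequence marks GPX4, which is a selenoprotein: the codon TGA, normally a stop, is read as selenocysteine in its active site. In the GENCODE 29 transcript GPX4-201 a TGA stood in frame as codon 73 of the 197 before the stop, shown in capitals. None of the complete coding transcripts of the other 9 genes held an in-frame TGA.
GPX4, codon 73 and its surroundings: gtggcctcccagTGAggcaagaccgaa

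Replicates 1, 2 and 3 held 25013265, 42610181 and 23868201 counts. Detected means here that no library had fewer than 10 counts, which held for 14612 genes, among them all 10 described here, whose lowest count was 172. CPM is the count after scaling every library to one size, and CPM per kb divides it by the gene's exon length, so that levels of different genes can be set side by side. The median detected gene stood at 25.2 CPM and at 5.59 CPM per kb. All 8 neuroendocrine markers of the fixed list were detected, with summed levels of 1333 to 1345 CPM. Of the 4 red cell markers none was detected, and of the 3 hepatocyte markers 1 was (TF, at 0.961 ± 0.148 CPM, SD, n = 3). Of the leukocyte, fibroblast and endothelial markers, 2 of 3, 1 of 3 and 2 of 2 were detected, with summed levels of 26.1 to 34.8, 0.417 to 1.05 and 0.805 to 1.54 CPM. The leukocyte sum was mostly CD68, a macrophage marker, at 22.6 ± 3.71 CPM, whereas PTPRC, the pan-leukocyte marker, had 6, 10 and 7 counts. Red cells, hepatocytes and macrophages all handle much iron, and the part of such cells in the levels below was not tested.

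Per kb of exon the 10 genes spanned a wide range. FTL led at 302 ± 36.3 CPM per kb (SD, n = 3), a level above that of 99.6% of detected genes with a known length. GPX4 followed at 56.3 ± 3.92 CPM per kb, TFRC at 35.7 ± 11.6, NCOA4 at 27.5 ± 1.87, IREB2 at 12.3 ± 2.35, ACSL4 at 10.3 ± 1.83 and FTH1 at 8.91 ± 0.459. The lowest were LPCAT3 at 2.47 ± 0.189, SLC40A1 at 2.25 ± 0.279 and AIFM2 at 1.49 ± 0.121 CPM per kb. Neighbours in this order overlapped between libraries for TFRC and NCOA4, for IREB2 and ACSL4, for ACSL4 and FTH1, and for LPCAT3 and SLC40A1, whereas FTL, GPX4 and AIFM2 stood clear of their neighbours in every library.

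**Figure D1:**
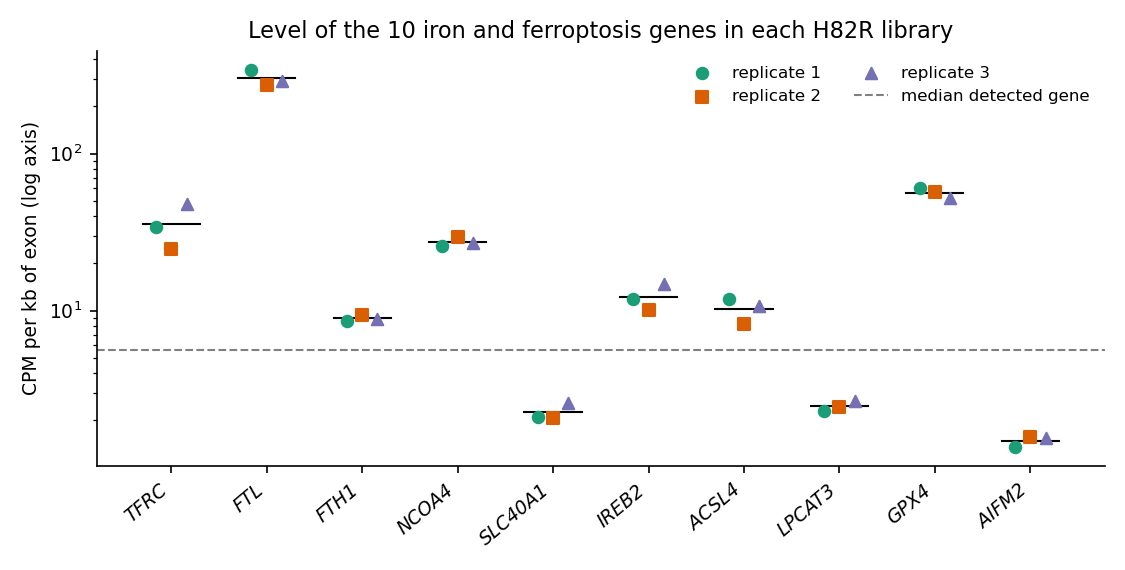
Level of each of the 10 genes (CPM per kb of exon, log axis) in replicates 1, 2 and 3; horizontal bars are the means and the dashed line is the median detected gene at 5.59 CPM per kb. FTL stands far above the rest at 302 CPM per kb, and SLC40A1, LPCAT3 and AIFM2 lie below the dashed line in all 3 libraries.

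Whether each gene lay above or below the typical gene was tested with limma's one-sample moderated test of log2 CPM against the median detected gene of the same library, and p-values were adjusted (Benjamini-Hochberg) across the 14612 detected genes, with calls made under 0.05. The SE of a log2 distance is limma's moderated SE, which also draws on the spread of all detected genes. It is therefore not the SE of the gene's own 3 libraries, and the p-values of this test rest on it. Among the 10 genes 6 were above the median gene and 4 below it, against 45.9% above and 46.1% below among all detected genes, so neither count stands far from what detected genes show in general. The median log2 distance of the 10 genes was 1.76, with 0 for all detected genes by construction. Per kb of exon 7 lay above and 3 below, against 45.3% and 45.0%, and the median distance was 0.998. FTH1 was the gene that changed sides.

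**Figure D2:**
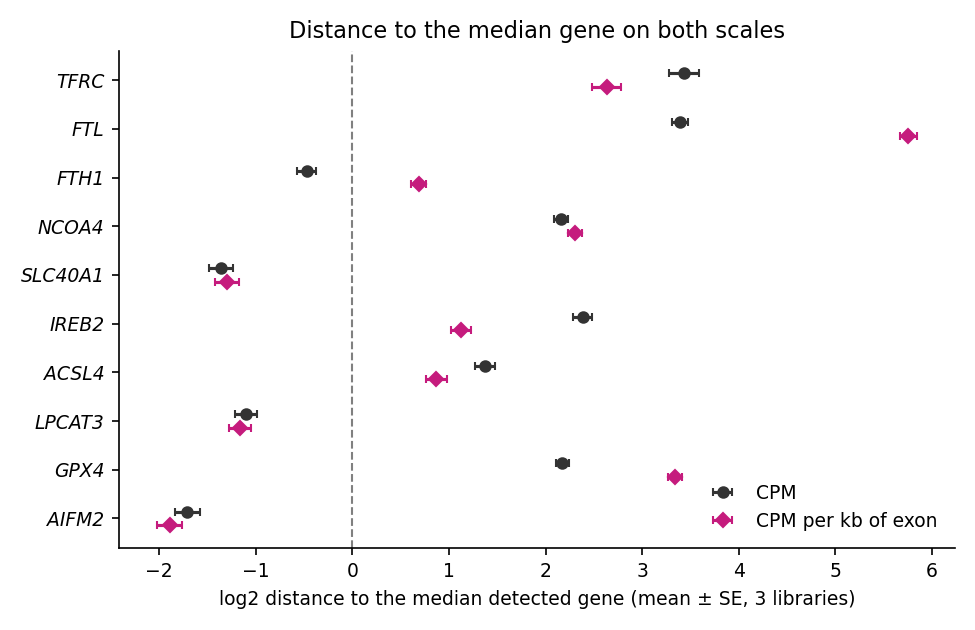
Log2 distance of each gene to the median detected gene on CPM (dots) and on CPM per kb of exon (diamonds), with the dashed line at 0. Shown are the means over 3 libraries ± limma's moderated SE. FTH1 lies at -0.47 on CPM and at 0.68 per kb, and the other 9 genes keep their side on both scales.

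Iron entry was represented by abundant TFRC, the receptor for transferrin. It had 6711, 8366 and 9059 counts in replicates 1, 2 and 3, which made 34.3, 24.8 and 47.9 CPM per kb. Replicate 3 was the highest and replicate 2 the lowest, although replicate 2 was the deepest library. TFRC lay 3.43 ± 0.15 (SE) above the median gene on log2 CPM (limma, adjusted p = 1.3e-07) and 2.63 ± 0.15 above it per kb (adjusted p = 5.1e-07). On GRCh38 the gene lies on chromosome 3, minus strand, from 196027183 to 196082189.

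Of 7 further uptake genes, 5 were detected, 3 lay above the median gene and 1 below on CPM. On that scale 45.9% of all detected genes lay above it and 46.1% below. SLC39A14, a zinc and iron importer, was the highest per kb at 38.2 ± 7.06 CPM per kb (SD, n = 3), 2.76 ± 0.10 (SE) above the median gene on that log2 scale (limma, adjusted p = 5.8e-08). TF, which encodes transferrin itself, was the lowest detected at 0.0367 ± 0.00563 CPM per kb, and 8.53% of its coding bases also belong to another annotated gene on its strand. TFR2, the second transferrin receptor, had 3, 3 and 1 counts and HFE, which modulates the receptor, 14, 14 and 2.

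Storage was represented by the ferritin genes FTL and FTH1, whose counts were unequal. FTL, the light chain that helps the iron core form, had 7464, 10220 and 6106 counts, or 342, 272 and 290 CPM per kb, with replicate 1 the highest. FTH1, the heavy chain that oxidises iron for storage, had 430, 817 and 427 counts, or 8.53, 9.42 and 8.78 CPM per kb, which lie close together. FTL stood 5.76 ± 0.09 (SE) above the median gene per kb (limma, adjusted p = 9.5e-10). FTH1 stood 0.47 ± 0.10 below it on log2 CPM (adjusted p = 0.00192) and 0.68 ± 0.08 above it per kb (adjusted p = 5.1e-05).

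The FTH1 to FTL ratio per kb was 0.0249 in replicate 1, 0.0346 in replicate 2 and 0.0302 in replicate 3, with 95% exact binomial intervals of 0.0226 to 0.0275, 0.0322 to 0.0371 and 0.0274 to 0.0334. These intervals cover counting error only, since PCR copies of a molecule cannot be recognised without molecular identifiers. The geometric mean ratio was 0.0296 with all annotated exons and 0.0490 with the longest coding transcript of each gene. FTH1 has near-identical copies: 25 annotated pseudogenes carry its name and 16 carry that of FTL, and no row of the table has the name of any of them. Of the 50-base runs of the longest coding transcript, 40.4% for FTH1 and 18.3% for FTL occur in another annotated gene, and of the 100-base runs 20.2% and 3.34%. Counting only 50-base runs found in no other gene as length, an alternative chosen after seeing the data, the mean ratio was 0.0660. How reads shared with these copies were counted is not given in the sources used here, so the FTH1 level is uncertain. BEST1 overlaps 62.4% of the FTH1 exon bases on the other strand and had 3, 138 and 12 counts. Whether reads over this overlap were counted for FTH1, for BEST1 or for neither was not tested. TFRC per kb was 4.02, 2.64 and 5.46 times FTH1 in replicates 1, 2 and 3, with a mean of 3.87 over all exons and of 2.09 over unshared runs. FTH1 lies on chromosome 11, minus strand, from 61959718 to 61967660, and FTL on chromosome 19, plus strand, from 48965301 to 48966878.

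NCOA4, the receptor that delivers ferritin to lysosomes so that its iron is freed, had 2624, 5154 and 2648 counts, or 25.9, 29.6 and 27.1 CPM per kb. It lay 2.16 ± 0.07 (SE) above the median gene on log2 CPM (limma, adjusted p = 3.2e-08). Per kb its ratio to FTH1 was 3.04, 3.14 and 3.09 in replicates 1, 2 and 3, the narrowest of the 12 fixed ratios, with an SD of 0.02 on the log2 scale. The size of this ratio depends on the length used: its mean was 3.09 with all exons, 2.15 with the longest coding transcripts and 1.32 over unshared runs. NCOA4 itself has 3 pseudogenes by name and shares 5.51% of its 50-base runs. The gene lies on chromosome 10, minus strand, from 46005088 to 46030714.

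Of 4 further storage genes, 3 passed the detection limit, and each of these exceeded the median gene on CPM, as did 45.9% of all detected genes. PCBP1, an RNA-binding protein that also hands iron to ferritin, reached 181 ± 2.65 CPM per kb (SD, n = 3) and lay 5.03 ± 0.07 (SE) above the median gene per kb (limma, adjusted p = 9.5e-10), while 52.2% of its exon bases lie opposite an antisense gene. HERC2, the lowest detected, is a ubiquitin ligase that acts on NCOA4 and stood at 6.78 ± 0.405 CPM per kb. FTMT, the mitochondrial ferritin, had 0 counts in all 3 libraries, and the limit that 0 allows, taken as 3 counts, was 0.121 CPM for replicate 1, 0.0702 CPM for replicate 2 and 0.125 CPM for replicate 3.

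SLC40A1, which encodes ferroportin, the iron exporter, lay below the median gene. It had 226, 385 and 267 counts, or 2.10, 2.08 and 2.57 CPM per kb. Its log2 distance to the median gene was -1.36 ± 0.12 (SE) on CPM (limma, adjusted p = 9.8e-06) and -1.30 ± 0.12 per kb (adjusted p = 1.2e-05). TFRC exceeded it per kb by 16.3, 11.9 and 18.6 times in replicates 1, 2 and 3, with 95% exact binomial intervals of 14.3 to 18.7, 10.8 to 13.2 and 16.5 to 21.1. Of the 4 other genes of the list, which are ferroxidases and regulators of export, none was detected, where 14612 of the 27574 genes of the table were: HEPH, a ferroxidase that loads iron for transport, had 7, 11 and 7 counts, CP, which encodes ceruloplasmin, 2, 3 and 3, HAMP, which encodes the ferroportin-blocking hormone hepcidin, 4, 3 and 0, and HJV, a hepcidin coregulator named HFE2 in the table, 2, 9 and 1. SLC40A1 lies on chromosome 2, minus strand, from 189560579 to 189583758.

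IREB2 encodes iron regulatory protein 2, which binds the hairpins printed above. It had 3192, 4681 and 3829 counts, or 11.9, 10.1 and 14.8 CPM per kb, highest in replicate 3 and lowest in replicate 2. It lay 2.38 ± 0.10 (SE) above the median gene on log2 CPM (limma, adjusted p = 1.1e-07) and 1.13 ± 0.10 per kb (adjusted p = 1.1e-05). The related ACO1, which doubles as cytosolic aconitase, stood at 6.57 ± 0.151 CPM per kb (SD, n = 3), and FBXL5, the iron-sensing ligase subunit that marks IREB2 protein for destruction, at 5.71 ± 0.395. Per kb the IREB2 level was 1.78, 1.59 and 2.23 times that of ACO1 and 1.95, 1.77 and 2.78 times that of FBXL5. With the longest coding transcripts the mean ratio to ACO1 was 3.10 in place of 1.85. FBXL5 was not distinguished from the median gene (limma, adjusted p = 0.567), whereas ACO1 lay above it by 0.98 ± 0.07 on log2 CPM (adjusted p = 2.7e-06). IREB2 lies on chromosome 15, plus strand, from 78437431 to 78501456.

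Among the lipid genes, ACSL4, which activates long polyunsaturated fatty acids, stood well above LPCAT3, which inserts them into phospholipids. ACSL4 had 1880, 2256 and 1653 counts, or 11.8, 8.23 and 10.8 CPM per kb, with replicate 2 the lowest. LPCAT3 had 269, 494 and 302 counts, or 2.29, 2.45 and 2.67 CPM per kb. In limma's test ACSL4 lay 1.37 ± 0.10 (SE) above the median gene on log2 CPM (adjusted p = 2.7e-06), and LPCAT3 lay at -1.10 ± 0.11 (adjusted p = 2.2e-05). The ACSL4 to LPCAT3 ratio per kb was 5.15, 3.36 and 4.03, with a mean of 4.12 over all exons and of 2.38 over the longest coding transcripts. EMG1 lies opposite 65.6% of the LPCAT3 exon bases and had 61, 105 and 64 counts, and the counting of reads over this overlap was not tested either. ACSL4 lies on chromosome X, minus strand, from 109624244 to 109733403, and LPCAT3 on chromosome 12, minus strand, from 6976186 to 7018510.

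Both lipid genes have counterparts whose products favour monounsaturated fatty acids. ACSL4 per kb was 1.24, 0.995 and 0.828 times ACSL3 in replicates 1, 2 and 3, so the order differed between libraries (two-sided exact sign-flip test, p = 1). LPCAT3 per kb was 0.409, 0.555 and 0.519 times MBOAT1, a lysophospholipid acyltransferase, but 1.02 times it on average with the longest coding transcripts, so no order of the pair can be given. Of the 13 phospholipid genes of the wider list, 11 were detected, 7 exceeded the median gene and 4 were under it on CPM. Among all detected genes the shares were 45.9% and 46.1%. SCD, the desaturase that makes monounsaturated fatty acids, was the highest at 122 ± 23.5 CPM per kb (SD, n = 3), 4.43 ± 0.10 (SE) above the median gene per kb (limma, adjusted p = 3.9e-09). The lipoxygenase family gene ALOXE3 was the lowest detected at 0.370 ± 0.284 CPM per kb, with 21, 112 and 17 counts. The lipoxygenase genes ALOX15, with 0, 0 and 3 counts, and ALOX15B, with 3, 1 and 3, were not detected.

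The defence genes were unequal too. GPX4, which reduces phospholipid hydroperoxides with glutathione, had 3008, 4887 and 2524 counts, or 60.0, 56.6 and 52.2 CPM per kb. AIFM2, which encodes FSP1 and regenerates coenzyme Q as a lipid radical trap, had 172, 343 and 191 counts, or 1.35, 1.56 and 1.55 CPM per kb. GPX4 lay 3.34 ± 0.07 (SE) above the median gene per kb (limma, adjusted p = 2.2e-09) and AIFM2 at -1.89 ± 0.13 (adjusted p = 1.7e-06). Per kb, GPX4 exceeded AIFM2 by 44.5, 36.2 and 33.6 times in replicates 1, 2 and 3, with 95% exact binomial intervals of 38.1 to 52.2, 32.5 to 40.5 and 29.0 to 39.1. Against GPX1, the cytosolic glutathione peroxidase that acts on soluble peroxides, GPX4 was 0.647, 0.817 and 0.658 times as high per kb, and on average 1.14 times as high with the longest coding transcripts, so this pair has no settled order. GPX4 shared no 50-base run with another annotated gene. It lies on chromosome 19, plus strand, from 1103926 to 1106791, and AIFM2 on chromosome 10, minus strand, from 70098223 to 70132934.

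**Figure D3:**
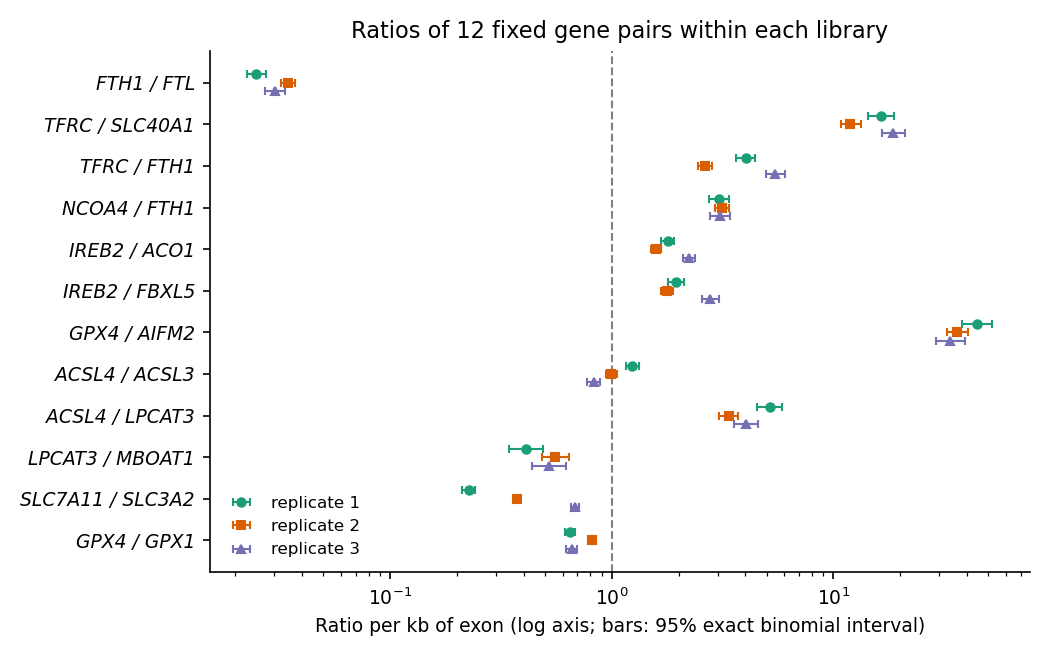
Ratio per kb of exon (log axis) of the 12 fixed gene pairs in replicates 1, 2 and 3, with 95% exact binomial intervals and a dashed line at 1. GPX4 to AIFM2 is the highest at 33.6 to 44.5 and FTH1 to FTL the lowest at 0.0249 to 0.0346; ACSL4 to ACSL3 lies on both sides of the line.

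Over the 12 pairs the two-sided exact sign-flip test gave p = 0.25 for each of the other 11, the smallest that 3 libraries allow (0.273 adjusted over the pairs), so no ratio could pass a threshold of 0.05.

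Of 9 glutathione and selenoprotein genes that supply GPX4, all passed the detection limit, with 7 above the median gene and 2 below on CPM, where 45.9% and 46.1% of all detected genes did. The list itself was not tested. SLC3A2, the heavy chain of the cystine importer, was the highest per kb at 34.8 ± 10.0 CPM per kb (SD, n = 3), and PSTK, a kinase of selenocysteine synthesis, the lowest at 1.41 ± 0.0559. SLC7A11, the transport chain that imports cystine for glutathione, had 1330, 6870 and 5557 counts, or 53.5, 161 and 232 CPM, with replicate 1 far under the others. SLC3A2 had 127, 231 and 182 CPM and was lowest in the same library. The SLC7A11 to SLC3A2 ratio per kb was 0.226, 0.373 and 0.683, with a mean of 0.386 with all exons and 0.166 with the longest coding transcripts. An antisense gene overlaps 8.97% of the SLC7A11 exon bases.

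Of 6 genes of defences that do not need GPX4, 3 lay above the median gene and 3 below on CPM. The shares of all detected genes were 45.9% and 46.1%. PRDX6, a peroxiredoxin that reduces phospholipid hydroperoxides, was the highest of the 6 at 82.4 ± 2.28 CPM per kb (SD, n = 3). DHODH, a mitochondrial pyrimidine enzyme that reduces coenzyme Q, was the lowest at 2.86 ± 0.303. CHAC1, which degrades glutathione, had 523, 2083 and 1102 counts, or 21.1, 48.7 and 46.0 CPM, and PTGS2, a prostaglandin synthase gene often read as a ferroptosis marker, 17, 37 and 21 counts. CHAC1 was lowest in replicate 1.

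In mitochondria, 4 of 7 iron and iron-sulfur cluster genes were above the median gene and 2 under it on CPM. All detected genes split into 45.9% above and 46.1% under. CISD1, an iron-sulfur protein of the outer membrane, led at 11.4 ± 1.34 CPM per kb (SD, n = 3). Of 6 haem genes, 2 exceeded the median gene and 1 was under it on CPM, beside the same shares of all detected genes. ALAS1, which starts haem synthesis, led at 20.7 ± 0.470 CPM per kb, and HMOX1, which breaks haem down and frees its iron, was the lowest at 0.973 ± 0.210, at a log2 distance of -2.49 ± 0.16 to the median gene per kb (SE, limma, adjusted p = 1.3e-06).

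Over all 60 genes of the wider list, 51 were detected, 31 lay above the median gene and 14 below on CPM, with a median log2 distance of 0.70. Per kb of exon 28 lay above and 13 below, with a median of 0.45. The shares among all detected genes were 45.9% and 46.1% on CPM and 45.3% and 45.0% per kb.

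**Figure D4:**
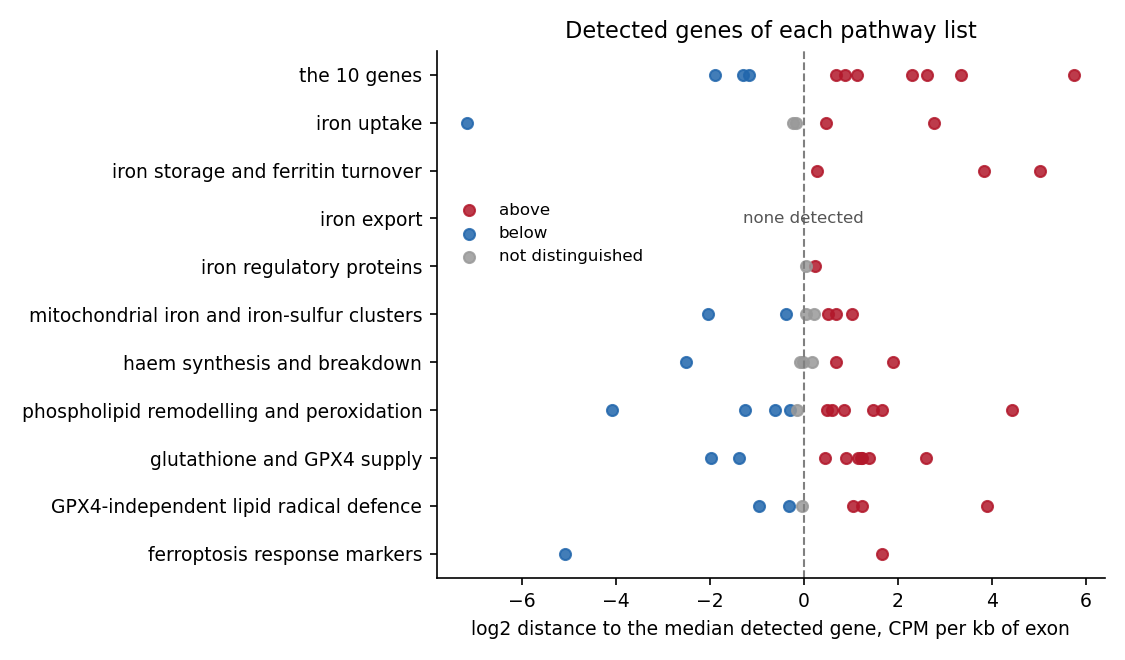
Log2 distance per kb of exon to the median detected gene (dashed line at 0) for each detected gene of the 10 genes (top) and of the 10 lists of the wider pathway, coloured by limma's call. The 3 detected storage genes all lie above the line, where 45.3% of all detected genes were called above it per kb. No gene of the export list is shown because none of its 4 was detected. The exporter gene SLC40A1 is shown among the 10 genes.

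A chi-square test of homogeneity, adjusted across the 14612 detected genes, asked whether the 3 counts of a gene differed by more than counting error. Of the 10 genes, 7 were uneven, against 68.7% of all detected genes, so the count is that of a typical set of detected genes. The even ones were AIFM2 (adjusted p = 0.300), LPCAT3 (adjusted p = 0.232) and FTH1 (adjusted p = 0.247). TFRC had the widest spread, with its highest CPM 1.93 times its lowest, an SD of log2 CPM above that of 94.3% of the 12790 detected genes with a mean of at least 50 counts. IREB2 followed at 1.46 times and ACSL4 at 1.43 times, and FTL, SLC40A1, GPX4 and NCOA4 ranged from 1.14 to 1.26 times. AIFM2 and LPCAT3, called even, each ranged 1.16 times, slightly wider than GPX4 at 1.15 and NCOA4 at 1.14 times. Their counts were far lower, and at low counts the same spread is harder to tell from counting error. An even call therefore does not mean a narrower spread. Without replicate 2 neither NCOA4 nor SLC40A1 was called uneven, and without replicate 3 SLC40A1 was not.

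Of the 7 uneven genes, 5 were lowest in replicate 2, where 39.2% of all uneven genes had their lowest level. The highest level fell in replicate 1 for 3 of them and in replicate 3 for 3. Among all uneven genes, 29.7% were highest in replicate 1 and 32.8% in replicate 3. In the wider list 31 genes were uneven. Of these, 7 were lowest in replicate 1, 16 in replicate 2 and 8 in replicate 3. Among all uneven genes the shares were 28.6%, 39.2% and 32.2%. SLC7A11 had the widest spread of those with a mean of at least 50 counts, with its highest CPM 4.33 times its lowest, a spread above that of 99.8% of such genes. The corresponding range was 3.69 times for ALOXE3, 2.31 times for CHAC1, 2.05 times for ALOX5, a lipoxygenase gene, and 1.82 times for SLC3A2. As single examples, the lowest library was replicate 1 for SLC7A11, CHAC1 and SLC3A2, replicate 2 for TFRC, ACSL3 and SCD, and replicate 3 for ALOXE3 and ALOX5. In RNA from bulk cultures, fewer cells that express a gene and less RNA per cell cannot be told apart. The deepest library was replicate 2, and the part of depth in these spreads was not tested.

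**Figure D5:**
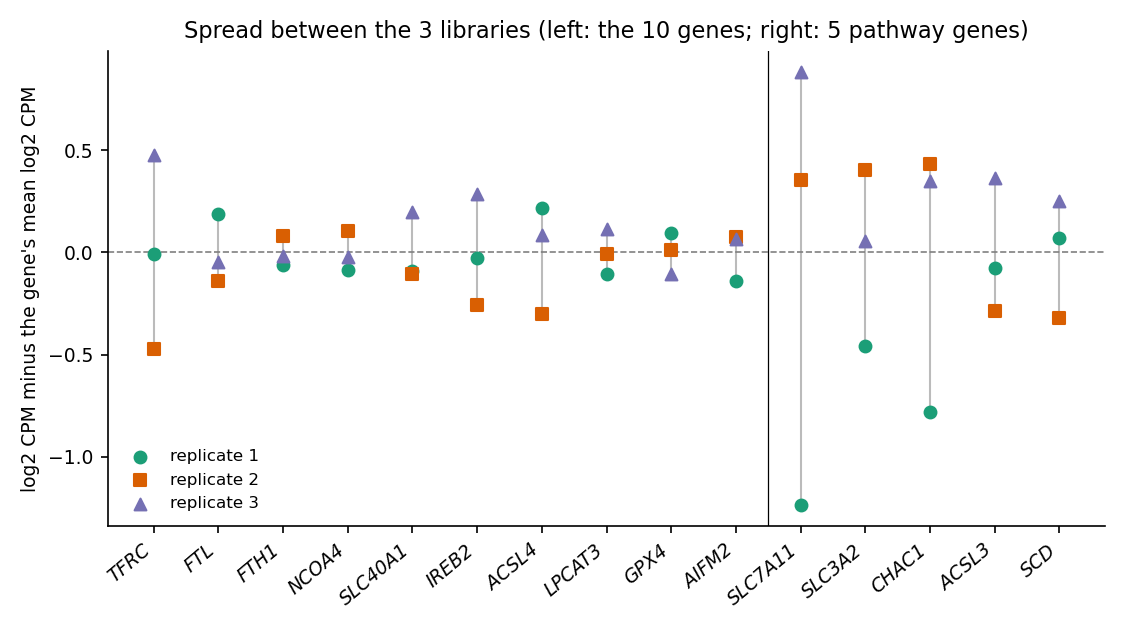
Log2 CPM of replicates 1, 2 and 3 minus the gene's mean over the 3 libraries, for the 10 genes (left of the line) and for SLC7A11, SLC3A2, CHAC1, ACSL3 and SCD (right of it). TFRC spans 1.93-fold and SLC7A11 4.33-fold, while FTH1, NCOA4, GPX4, AIFM2 and LPCAT3 span 1.10-fold to 1.16-fold.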

How the data were processed

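The authors deposited 1 table of raw read counts, with a row per gene symbol and a column per library. The submitters' processing notes list STAR 2.6.1b and hg38. How reads were counted, with which annotation, strand setting or filter, is not given in the sources used here. Of 27587 names, 13 had become dates (0.0665% to 0.0736% of counts) and were left out. CPM used totals times TMM factors (edgeR 4.0.16), with a prior count of 2 for log2 CPM. Tests were fitted on all detected genes with limma 3.58.1 (trend, R 4.3.3). No contrast between groups exists, so neither edgeR's quasi-likelihood nor DESeq2's test was run. DESeq2 1.42.0 gave size factors for an alternative. The steps were tested on simulated counts, with the same added spread for every gene or with counting noise only. In the real counts 68.7% of detected genes varied beyond counting error, so the simulation does not show how the steps perform on these data. Gene positions, exon lengths (all exons merged) and transcripts came from GENCODE 29, built on GRCh38 (hg38). By symbol 19590 names were matched to it, and a further 481 by an earlier symbol, which gave a length for 92.6% of detected genes.

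The 10 genes, the 10 lists, the 12 pairs and the tests were chosen with earlier results of these data known. Named are all 10 genes, every pair member, and of each list the highest and lowest detected gene per kb and each undetected gene, except 1 gene that is not reported here. ACSL3 and SCD appear in the spread plot as examples chosen after seeing values, and ALOX5 is named for its spread alone. No search for genes of similar pattern was made, since 3 replicates of 1 group hold no conditions. Where genes are said to be lowest in the same library, this is a description of library order only.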

Additional observations from a re-analysis of the deposited data

How the results depend on the processing

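The number of the 10 genes above and below the median detected gene, and of those uneven between libraries, stayed within 1.5 times the reported count under every alternative run except one. Keeping any gene with a count lowered the median gene, so that 10 lay above and 0 below. It turned AIFM2 to 0.58, LPCAT3 to 1.19, FTH1 to 1.82 and SLC40A1 to 0.93 on the log2 scale. Per kb of exon FTH1 turned to 0.68. With the upper quartile as reference point, 16 wider pathway genes lay above and 33 below, and ACSL4 turned to -0.0168 (limma, adjusted p = 0.876, from 2.8e-16 over its 12 alternatives). Without each replicate in turn the 10 genes split as reported, 6 above and 4 below, and 5 to 7 were uneven. The changes of side follow from the reference point or length used, neither of which enters the test of unevenness.

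Of the 12 log2 ratios per kb, 3 changed direction. ACSL4 to ACSL3, at 0.01, turned to -0.14 without replicate 1, from -0.14 to 0.15 over the libraries left out, to -0.17 with no length scaling, to -0.0755 with the longest coding transcript and to -0.0747 over unshared 50-base runs. LPCAT3 to MBOAT1, at -1.03, turned to 0.37, 0.0296 and 0.0290 under those length choices, and GPX4 to GPX1, at -0.51, to 0.19 with the longest coding transcript. The unshared-run alternative was chosen after seeing the data. No paired analysis was possible because the labels form 1 group. The floors given with FTMT hold for a count of 0 in a library; other undetected genes had the counts printed with them.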

Other observations

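Several of the genes belong to families, whose other members were looked up after the values of the 10 genes had been seen, and which are given as levels with no test. Of the glutathione peroxidase genes, GPX1 and GPX4 led at 80.4 ± 11.7 and 56.3 ± 3.92 CPM per kb (SD, n = 3). The secreted GPX3 stood at 13.9 ± 2.61 CPM per kb, while GPX2 (0.464 ± 0.100) and GPX8 (0.609 ± 0.101) were low. GPX7, an endoplasmic reticulum peroxidase, had 0 counts in all 3 libraries.

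Of the long-chain acyl-CoA synthetase genes, ACSL3 (10.3 ± 2.44 CPM per kb), ACSL4 (10.3 ± 1.83) and ACSL1 (8.46 ± 1.11) overlapped between libraries, and ACSL6 was lower at 2.75 ± 0.343. ACSL5 had 3, 28 and 6 counts. Among lysophospholipid acyltransferase genes LPCAT1 stood highest, at 8.43 ± 1.19 CPM per kb, against 5.46 ± 0.514 for LPCAT4, 4.05 ± 0.163 for LPCAT2 and 2.47 ± 0.189 for LPCAT3, which was the lowest of these 4 in every library. With the longest coding transcript as length, LPCAT3 at 5.14 CPM per kb came close to LPCAT2 at 5.58. The overlap of LPCAT3 with EMG1 applies here too. In the AIFM family, AIFM1, which encodes the mitochondrial apoptosis-inducing factor, reached 22.7 ± 1.80 CPM per kb against 1.49 ± 0.121 for AIFM2, and AIFM3 had 12, 33 and 3 counts.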
